A study of Solanum lycopersicum with 6 samples.

Results

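Aux/IAA proteins are repressors of the plant response to the hormone auxin, and 10 tomato genes of this family, chosen by locus identifier out of 25440 loci with an expression value, are described here in axillary buds. An axillary bud is the shoot that forms where a leaf joins the stem. The genes are IAA1, IAA2, IAA3, IAA4, IAA7, IAA8, IAA9, IAA14, IAA16 and IAA27. Buds came from greenhouse plants of 2 cultivars that the labels call compound raceme and monomaker, with 3 libraries each. The library titles begin with BJ in the compound raceme cultivar and with WT in the monomaker cultivar; the labels name no allele, treatment, age or stage for either. The labels do not tell separate plants from repeat libraries of the same material, so a p-value here covers library-to-library spread only, which could be technical. The design asks which genes differ between the buds of the cultivars.

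When auxin is low, an Aux/IAA protein binds an auxin response factor (ARF) on the promoter of a target gene and recruits a TOPLESS co-repressor. Auxin brings the Aux/IAA protein to a TIR1/AFB receptor, the repressor is degraded, and the ARF is freed. Many Aux/IAA genes are themselves targets of ARFs, so their transcripts are often raised by auxin. Auxin made at the shoot tip and moving down the stem is known to restrain the outgrowth of axillary buds.

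Values are FPKM, fragments scaled to transcript length and library total, so that levels can be set side by side between genes. The table holds no read counts, and the depth of each library is unknown. The commonest ratio of low values, compound raceme 1 over each other library, was 1.0 to 1.035. Because FPKM are already scaled to the library total, this ratio cannot show the depths. Of the marker genes of a bud or shoot meristem, BRC1B (Solyc06g069240), which encodes a brake on bud growth, had 43.4 to 55.7 FPKM in compound raceme, against 11.5 to 32.2 FPKM in monomaker. The meristem gene TKN2 (Solyc02g081120) was detected in all 6 libraries. The bud gene LS (Solyc07g066250) and the stem cell gene WUS (Solyc02g083950) were low, averaging 0.785 and 0.25 FPKM over the 6 libraries. Compound raceme 1 stood apart in meristem genes, with 2.08 FPKM of TKN2, 0.08 FPKM of the related TKN1 (Solyc04g077210) and WUS listed at 0. It did not stand apart from the other compound raceme libraries in BRC1B, at 53.9 FPKM, or the related BRC1A, at 5.09 FPKM. Summed over 5 genes of green leaf tissue, Rubisco small subunit and light-harvesting genes, the libraries held 3555, 1566 and 4202 FPKM in compound raceme, against 3885, 14680 and 20920 FPKM in monomaker. Summed over 4 genes of dividing cells, they held 28.7, 16.7 and 12.8 FPKM in compound raceme, against 112, 192 and 158 FPKM in monomaker. Of 6 flower genes, 3 were called lower in limma on log2(FPKM + 1) at an adjusted p below 0.05, as were 2.52% of all tested loci. These were TM5 (Solyc05g015750, log2 fold change -2.18, limma adjusted p = 0.0193), TPI (Solyc06g059970, -2.0 and 0.0193) and TM29 (Solyc02g089200, -2.31 and 0.0184). They averaged 0.0167, 0.22 and 0.253 FPKM in compound raceme, against 3.75, 3.93 and 5.25 FPKM in monomaker. All 3 passed the filter, a mean of 1 FPKM over the 6 libraries, only through monomaker. A call of these genes could therefore only be lower. Most of the summed flower signal was TM6 (Solyc02g084630), with 49.5, 80.1 and 66.0 FPKM in compound raceme, against 31.1, 41.0 and 36.2 FPKM in monomaker (limma adjusted p = 0.0842). None of these marker genes was at 0 in all libraries. In a whole bud, fewer cells of a type and less RNA per cell cannot be told apart.

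All 10 Aux/IAA genes had FPKM above 0 in every library, over a wide range of levels, with IAA2 at only 0.62 to 0.99 FPKM in compound raceme. IAA9 had the highest mean over the 6 libraries, 183 FPKM, which placed it at the 96.9th percentile of the 18802 tested loci, those averaging 1 FPKM or more. IAA16 followed at 109 FPKM, IAA14 at 80.6, IAA4 at 65.2, IAA1 at 33.6, IAA27 at 28.3, IAA8 at 23.1, IAA7 at 19.3 and IAA3 at 10.5 FPKM. IAA2 was lowest, at 2.54 FPKM and the 12th percentile. In the order of means, IAA9 and IAA16 did not overlap in either cultivar, nor did IAA4 and IAA1. IAA14 and IAA4 overlapped in both cultivars, as did IAA7 and IAA3, so their places in the order rest on less than the spread between libraries.

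**Figure D1:**
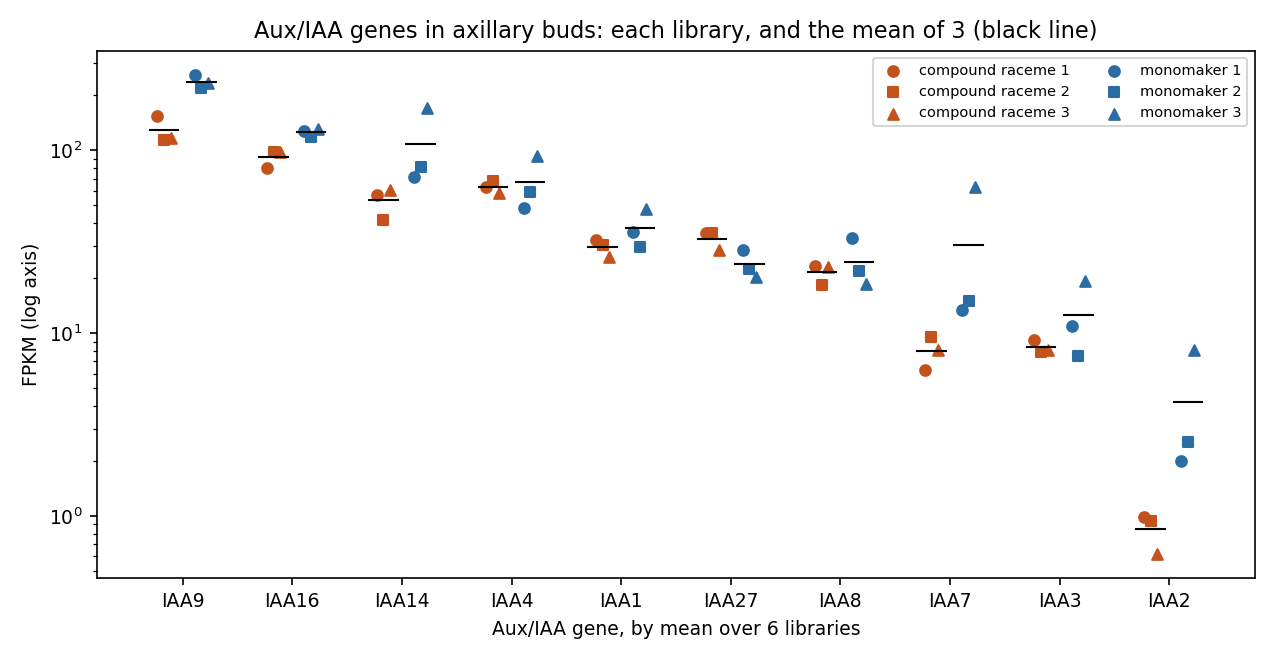
FPKM (log axis) of the 10 Aux/IAA genes in each of 3 compound raceme libraries (orange, left) and 3 monomaker libraries (blue, right), with the mean as a black line. IAA9 is the most abundant gene in every library, and in IAA7, IAA14 and IAA2 monomaker 3 lies far above the other 2 monomaker libraries.

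Between the cultivars, IAA9, IAA16, IAA14, IAA7 and IAA2 had lower values in every compound raceme library than in any monomaker library, and no member was higher without overlap. Of all tested loci, 15.3% were lower without overlap and 16.4% higher. Differences were tested with limma on log2(FPKM + 1) over all 18802 loci with Benjamini-Hochberg adjustment. At an adjusted p below 0.05, limma called 0 of the 10 members in either direction, against 3.27% of tested loci, 2.52% called lower and 0.750% higher. At an unadjusted limma p below 0.05, 5 members were lower and 1 was higher, against 14.0% and 11.7% of all tested loci. IAA2, counted as lower here and without overlap, averaged 0.85 FPKM in compound raceme and passed the filter only through monomaker. In the authors' deposited table, 3 of the 10 members had a q-value below 0.05 and a lower value in compound raceme, IAA9, IAA7 and IAA2, and 0 a higher one; 6.63% of the rows of that table were lower and 3.54% higher. The fold change was below 0 for 9 of 10 members, and for 8 of 10 with quantile normalization or with libraries rescaled to the same sum, where IAA4 turned; it was also 8 of 10 without compound raceme 3 or monomaker 3 (IAA4) and without monomaker 1 (IAA8). Of all tested loci, 46.1% were below 0. The median log2 fold change was -0.45 for the 10 genes and 0.04 for all tested loci.

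IAA9, IAA8 and IAA27 carry the names of closely related Arabidopsis repressors. IAA9 (Solyc04g076850; chromosome 4, 61845929 to 61851389 of SL3.0, plus strand), also called ENTIRE, is the tomato repressor whose loss turns the compound leaf into a simple one and lets fruit set without pollination. It had 155, 114 and 117 FPKM in compound raceme, against 259, 219 and 233 FPKM in monomaker. The groups lay far apart, and the means were 129 ± 22.7 FPKM in compound raceme, against 237 ± 20.6 FPKM in monomaker (SD, n = 3 each), a ratio of 0.542. The log2 fold change was -0.89 (SE 0.18, 95% interval -1.32 to -0.46), and the limma adjusted p of 0.0521 missed the threshold narrowly. It was 0.0489 without compound raceme 1, the library with little TKN2, where 2.24% of all tested loci were called lower, and 0.0499 without an intensity trend in the variance, where 2.65% were. The other 13 of 15 alternatives left it above 0.05, up to 0.228. The authors' deposited table gives the main row of IAA9 a log2 ratio of -0.91 and a q-value of 1.4e-06. A minor row of the same locus held 0 to 1.99 FPKM per library and was added to it.

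IAA27 (Solyc03g120500), a tomato repressor whose silencing makes plants more sensitive to auxin, was the member with a fold change above 0. It had 35.2, 35.2 and 28.3 FPKM in compound raceme, against 28.5, 22.6 and 20.2 FPKM in monomaker. The groups overlapped only between the lowest compound raceme and the highest monomaker library. Its log2 fold change was 0.46 (SE 0.17, limma adjusted p = 0.164), and it was between 0.36 and 0.59 in all 15 alternatives. IAA8 (Solyc12g007230) had 23.4, 18.4 and 23.0 FPKM in compound raceme, against 33.0, 21.8 and 18.7 FPKM in monomaker. Those groups overlapped, with a log2 fold change of -0.14 (95% interval -0.69 to 0.40, limma adjusted p = 0.726) that turned to 0.09 without monomaker 1.

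IAA7, IAA14 and IAA16 share the names of Arabidopsis repressors in which mutations that stabilise the protein block auxin response. IAA16 (Solyc01g097290; chromosome 1, 88071775 to 88074719 of SL3.0, plus strand) had 80.2, 98.2 and 98.2 FPKM in compound raceme, against 128, 118 and 132 FPKM in monomaker. Each cultivar was tight, and the log2 fold change was -0.45 (SE 0.15, limma adjusted p = 0.132). It stayed between -0.50 and -0.35 in the alternatives. IAA14 (Solyc09g083290) had 57.0, 41.8 and 60.9 FPKM in compound raceme, against 71.5, 81.3 and 171 FPKM in monomaker, with monomaker 3 far above the others. Its log2 fold change of -0.91 (SE 0.34, limma adjusted p = 0.161) was -0.53 without monomaker 3. IAA7 (Solyc06g053830) had 6.29, 9.55 and 8.08 FPKM in compound raceme, against 13.4, 15.0 and 63.2 FPKM in monomaker. Here too the groups were apart and monomaker 3 was the highest. The log2 fold change of IAA7 was -1.47 (SE 0.56, limma adjusted p = 0.163) with all libraries and -0.78 without monomaker 3. In the authors' deposited table its log2 ratio is -1.75 with a q-value of 0.0222.

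IAA1, IAA2, IAA3 and IAA4 carry the names of Arabidopsis genes that are among the early targets of auxin. IAA2 (Solyc06g084070) had 0.99, 0.94 and 0.62 FPKM in compound raceme, against 2.0, 2.55 and 8.12 FPKM in monomaker. The groups did not overlap, the levels were low throughout, and monomaker 3 again exceeded the other monomaker libraries. The log2 fold change was -1.32 (SE 0.42, limma adjusted p = 0.123) and was -0.82 without monomaker 3; on this scale the change of a low gene is understated. The authors' deposited table gives IAA2 a log2 ratio of -2.0 and a q-value of 0.0252. IAA3 (Solyc09g065850; chromosome 9, 64345820 to 64349696 of SL3.0, minus strand), a tomato repressor known to link auxin and ethylene responses, had 9.23, 7.84 and 8.11 FPKM in compound raceme, against 11.0, 7.49 and 19.4 FPKM in monomaker. Its groups overlapped, and its log2 fold change of -0.44 (limma adjusted p = 0.395) was -0.11 without monomaker 3. IAA1 (Solyc09g083280) had 32.3, 30.5 and 26.1 FPKM in compound raceme, against 35.8, 29.6 and 47.6 FPKM in monomaker, with a log2 fold change of -0.31 (limma adjusted p = 0.355) that was -0.14 without monomaker 3. IAA4 (Solyc06g053840) had 63.4, 67.7 and 58.8 FPKM in compound raceme, against 48.2, 59.3 and 93.6 FPKM in monomaker. The compound raceme values of IAA4 lay inside the monomaker range, and its log2 fold change of -0.03 (95% interval -0.62 to 0.56, limma adjusted p = 0.950) was 0.24 without monomaker 3.

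**Figure D2:**
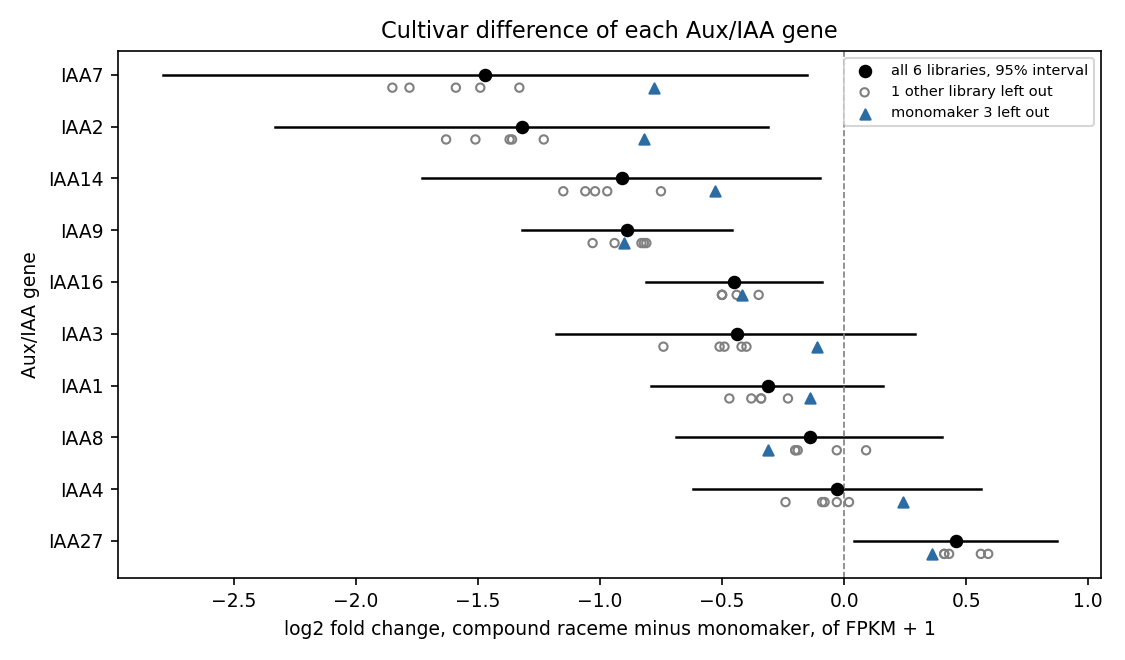
Log2 fold change of FPKM + 1, compound raceme minus monomaker, of each Aux/IAA gene with all 6 libraries (black, with the 95% interval of limma), with monomaker 3 left out (blue triangle) and with each other library left out (grey circles). IAA9 and IAA16 hardly moved without monomaker 3 (-0.90 and -0.42), whereas IAA7 moved to -0.78, IAA14 to -0.53 and IAA4 to 0.24.

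The members differed in how their monomaker libraries spread. For 7 of the 10 genes monomaker 3 was the highest of all 6 libraries, as it was for 12.6% of all tested loci. Monomaker 3 exceeded the mean of monomaker 1 and 2 by 4.45-fold in IAA7, 3.57-fold in IAA2, 2.24-fold in IAA14, 2.10-fold in IAA3, 1.74-fold in IAA4 and 1.46-fold in IAA1. The same ratio was 1.07 for IAA16, 0.975 for IAA9, 0.793 for IAA27 and 0.682 for IAA8. On the log2 scale its median was 0.66 over the members and -0.17 over all tested loci. The SD of log2(FPKM + 1) was larger in monomaker than in compound raceme for 8 of 10 members, against 63.7% of tested loci. For IAA7 it was 0.27 in compound raceme and 1.2 in monomaker, whereas for IAA9 it was 0.24 in compound raceme and 0.12 in monomaker.

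The leaf genes were also highest in monomaker 3, 5 of 5, and their sum there was 2.25 times the mean of monomaker 1 and 2. Their sum was 3.78 times as high in monomaker 2 as in monomaker 1, while the same ratio was 1.27 for IAA2, 1.23 for IAA4, 1.14 for IAA14, 1.12 for IAA7, 0.827 for IAA1 and 0.681 for IAA3. Of the 6 bud markers, 2 were lowest in monomaker 3, BRC1B and BRC1A (Solyc03g119770), and the other 4 in compound raceme 1. The part of these tissue differences in the Aux/IAA values was not tested.

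Over the 6 libraries, which are the same for every gene and include the cultivar difference, the 6 genes that were high in monomaker 3 varied alike. That group was formed after the values had been seen, so its likeness is only a description. Pearson's r of log2(FPKM + 1) was 0.59 to 0.97 in the 15 pairs among IAA1, IAA2, IAA3, IAA4, IAA7 and IAA14, with a median of 0.85. The closest pairs were IAA7 with IAA2 at 0.97, IAA1 with IAA3 at 0.95 and IAA14 with IAA2 at 0.94. Between those 6 genes and the other 4, r was -0.90 to 0.78 with a median of -0.06. That median mixes unlike genes. IAA9 and IAA16 had r of 0.55 to 0.78 with IAA1, IAA2, IAA3, IAA7 and IAA14, but -0.02 and 0.12 with IAA4. IAA4 itself had r of 0.59 to 0.69 within the 6. IAA8 and IAA27 had negative r with all 6, from -0.10 to -0.90. IAA9 was most like IAA16 among the members, at 0.75, and IAA27 was like none, its highest value being 0.15 with IAA8. Among all tested loci, Solyc02g087190 and Solyc04g077020 (r = 0.995 each) and Solyc07g055910 (r = 0.994) had the profiles most like that of IAA9 over the 6 libraries; none of them has a name in the sources used here.

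**Figure D3:**
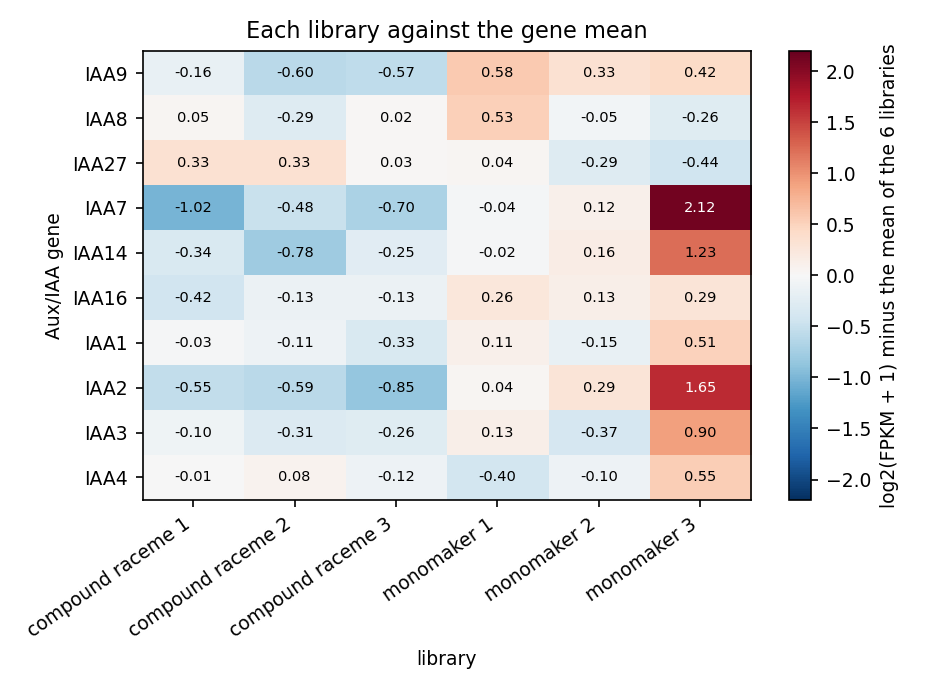
Log2(FPKM + 1) of each Aux/IAA gene in each library minus the gene's mean over the 6 libraries, red above and blue below the mean, with genes grouped by their Arabidopsis namesakes. Monomaker 3 reaches 2.12 for IAA7 and 1.65 for IAA2, while IAA9 is above its mean in all 3 monomaker libraries (0.33 to 0.58) and below it in all 3 compound raceme libraries.

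The members include pairs with consecutive locus numbers, IAA7 with IAA4 on chromosome 6 and IAA14 with IAA1 on chromosome 9, and the partners differed in level. IAA7 stood at 0.0993, 0.141 and 0.137 of the FPKM of IAA4 in compound raceme, against 0.278, 0.253 and 0.676 in monomaker. The ratio was thus lower in every compound raceme library, by 1.54 on the log2 scale (exact two-sided permutation test over libraries, p = 0.1, the smallest that 3 against 3 allows). IAA14 had 1.76, 1.37 and 2.33 times the FPKM of IAA1 in compound raceme and 2.0, 2.75 and 3.59 times in monomaker. These ratios overlapped (exact permutation p = 0.2). No adjustment over the 2 pairs was made. With 3 against 3 libraries this test cannot reach 0.05, so neither p decides whether the ratios differ.

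Summed over the 10 genes, the Aux/IAA pool held 463, 424 and 429 FPKM in compound raceme, against 631, 576 and 807 FPKM in monomaker. The pool was smaller in every compound raceme library, at 439 ± 21.0 FPKM against 671 ± 120 FPKM in monomaker (SD, n = 3 each; exact permutation p = 0.1, the smallest possible). Summed over all loci, FPKM was also lower in compound raceme, at 674654 to 687303 per library, against 717108 to 750250 in monomaker. The part of this in the pool difference was not tested. IAA9 made up 33.5%, 26.9% and 27.2% of the pool in compound raceme and 41.1%, 38.0% and 28.9% in monomaker, and these shares overlapped (exact permutation p = 0.2). IAA27 made up 7.5% ± 0.846 of the pool in compound raceme and 3.65% ± 1.03 in monomaker (SD, n = 3 each), with no overlap. IAA4 made up 14.5% ± 1.3 in compound raceme and 9.84% ± 2.02 in monomaker, also with no overlap, although its own FPKM did not separate the cultivars. Each of these last 2 comparisons gave an exact permutation p of 0.1, and so did the shares of IAA1 and IAA2; no adjusted value over the 10 shares can pass 0.05 in this design.

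**Figure D4:**
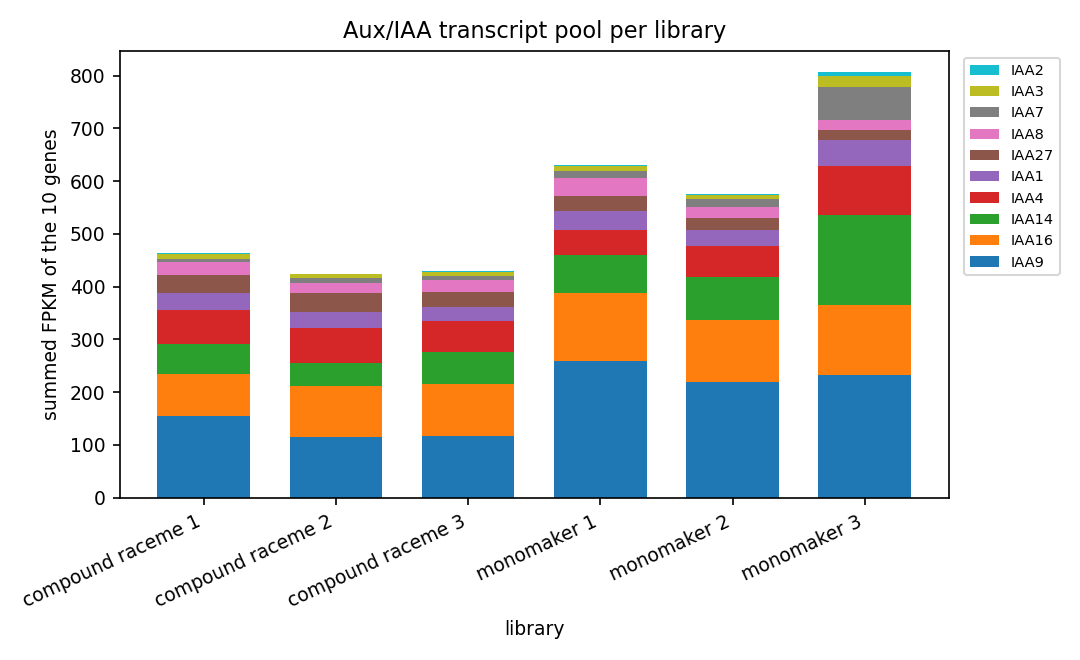
Summed FPKM of the 10 Aux/IAA genes in each library, stacked by gene in the order of their means. The 3 compound raceme libraries reach 424 to 463 FPKM and the 3 monomaker libraries 576 to 807 FPKM, with the extra height of monomaker 3 in the IAA14, IAA4 and IAA7 segments.

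Among 31 other auxin genes described here, 29 averaged 1 FPKM or more. Of these, 0 were called in limma over all loci, against 3.27% of all tested loci. At an unadjusted limma p below 0.05, 4 were lower and 2 higher, against the 14.0% and 11.7% of all tested loci. Of the 6 other Aux/IAA genes, 4 had a fold change below 0 and 4 were highest in monomaker 3. IAA19 (Solyc03g120380), known in Arabidopsis for growth curvature toward light and here next in number to IAA15, had 0.19, 0.12 and 0.19 FPKM in compound raceme, against 0.37, 2.61 and 16.4 FPKM in monomaker (log2 fold change -1.92, limma adjusted p = 0.206). IAA17 (Solyc06g008590), a tomato repressor that limits fruit size, had 1.37, 5.38 and 1.37 FPKM in compound raceme, against 1.98, 12.04 and 32.06 FPKM in monomaker (log2 fold change -1.72, limma adjusted p = 0.257). In both genes, as in IAA7 and IAA2, monomaker 3 was the highest library. Monomaker 2 was 7.05 times monomaker 1 in IAA19 and 6.08 times in IAA17, against 1.12 in IAA7 and 1.27 in IAA2. IAA26 (Solyc03g121060) had a fold change above 0, with 46.7, 137 and 136 FPKM in compound raceme, against 62.8, 54.9 and 44.4 FPKM in monomaker (log2 fold change 0.82, limma adjusted p = 0.264). Its low compound raceme value was that of compound raceme 1, and without that library the gene was called higher (log2 fold change 1.33, limma adjusted p = 0.0372), as were 0.962% of all tested loci. Without monomaker 1, IAA19 and IAA17 were called lower, with limma adjusted p of 0.0477 and 0.0424. Leaving out that library raised the calls over all loci from 614 to 2041, with 6.96% of tested loci called lower and 3.92% higher. The library left out held the lowest monomaker value of both genes, 0.37 FPKM in IAA19 and 1.98 FPKM in IAA17. IAA19 averaged 0.167 FPKM in compound raceme and passed the filter of 1 FPKM only through monomaker, so its call could only be lower.

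Of the ARF genes, whose proteins are the partners of Aux/IAA repressors, 0 of 11 were called in limma, against 3.27% of all tested loci. They had a median log2 fold change of 0.02, and 5 of them were below 0. At an unadjusted limma p below 0.05, 0 were lower and 1 was higher, against 14.0% and 11.7% of all tested loci. ARF1 (Solyc01g103050) had 82.4, 86.2 and 82.3 FPKM in compound raceme, against 75.7, 61.5 and 59.8 FPKM in monomaker (log2 fold change 0.35, limma adjusted p = 0.190). ARF24 (Solyc05g056040) and ARF3 (Solyc02g077560) had log2 fold changes of 0.67 and 0.26 (limma adjusted p = 0.293 and 0.58). ARF24 was called higher without monomaker 1 (log2 fold change 1.08, limma adjusted p = 0.0397), as were 3.92% of all tested loci.

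Of 8 genes of auxin transport, 6 had a fold change below 0, with a median of -0.29. The influx carrier LAX2 (Solyc01g111310) had 48.6, 26.5 and 17.9 FPKM in compound raceme, against 61.9, 58.7 and 46.6 FPKM in monomaker (log2 fold change -0.93, limma adjusted p = 0.156). It was called lower without compound raceme 1 (log2 fold change -1.31, limma adjusted p = 0.0489), as were 2.24% of all tested loci. The efflux carriers PIN7 (Solyc10g080880) and PIN3 (Solyc04g007690) pointed apart, at -0.92 and 0.76 (limma adjusted p = 0.274 and 0.153). The synthesis gene FZY (Solyc06g065630), a flavin monooxygenase, had 9.21, 4.97 and 3.42 FPKM in compound raceme, against 10.1, 5.15 and 2.30 FPKM in monomaker (limma adjusted p = 0.926). GH3 enzymes join auxin to amino acids and are common auxin targets. GH3-15 (Solyc12g005310), GH3.2 (Solyc01g107390) and GH3-3 (Solyc02g064830) had log2 fold changes of -0.88, 0.45 and 0.20, none of them called. None of the 3 was highest in monomaker 3.

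**Figure D5:**
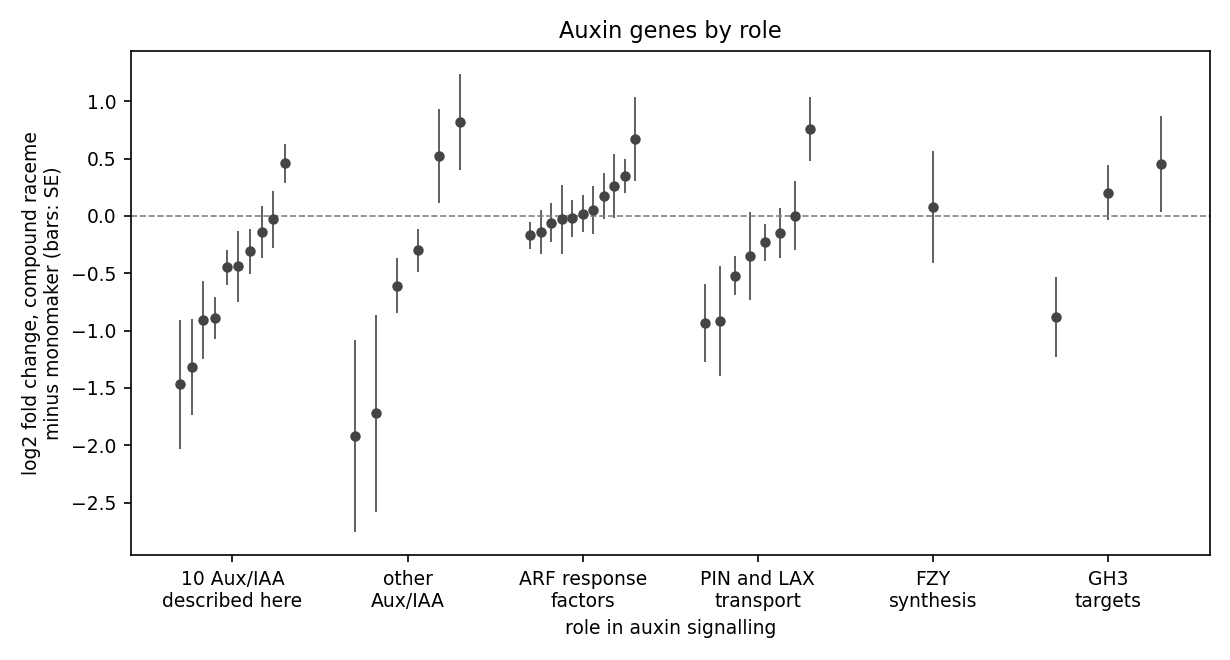
Log2 fold change of FPKM + 1, compound raceme minus monomaker, with the SE of limma, for the 10 Aux/IAA genes and 29 other auxin genes by role. The Aux/IAA genes reach from -1.47 to 0.46 and the other Aux/IAA genes from -1.92 to 0.82, while the ARF genes lie between -0.17 and 0.67; no point was called at an adjusted p below 0.05.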

How the data were processed

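RNA from axillary buds was extracted with Trizol and sequenced from BGI500 libraries, per the labels' protocols. Per the submitters' processing notes, the tools were DESeq2 1.4.5, RSEM 1.2.12, Bowtie2 2.2.5 and HISAT2 2.0.4, with no role stated. The authors deposited FPKM values rounded to 2 decimals in 31139 rows, with a log2 ratio of compound raceme over monomaker and a p-value and q-value per row, per the file headers. Chromosome names are those of SL3.0, and start and end stand in the table for 3 of the 10 members. Their test, the annotation release and the use of strand are not given in the sources used here.

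Rows of a locus were summed (2 rows for IAA9 only among the members). Loci averaging 1 FPKM or more were tested with limma 3.58.1 (R 4.3.3) on log2(FPKM + 1), with an intensity trend and the cultivar as the only term, and called at an adjusted p below 0.05. The test was also run on simulated data with equal spread in both cultivars, so that run does not cover the larger monomaker spread described above for most members. Exact permutation tests used scipy 1.17.1. Alternatives changed the pseudocount, the filter, the scaling, the summing of rows, the variance trend, the pairing and the libraries used.

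The table holds no gene names. Member names were given with the locus identifiers, and RefSeq (assembly SLM_r2.1) holds 8 of the 10 symbols, on the chromosome of the identifier and close to its place in gene order. Other auxin genes were recalled by identifier and used only where the same check passed, 31 of 63; it cannot tell close neighbours apart, such as IAA15 and IAA19. The check compares places among a chromosome's genes, with a tolerance of 0.05, or 0.02 relative to neighbouring pairs. No symbol for TIR1/AFB receptors or TOPLESS co-repressors was found there, so these are not analysed here. Marker genes passed the same check. All members are named, and per role of the other auxin genes up to 3 with the largest fold change and any called. Members and lists were chosen with earlier results of these data known. Protein and promoter sequences were not used here.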

Additional observations from a re-analysis of the deposited data

How the results depend on the processing

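The number of Aux/IAA genes called lower was 0 in 13 of 15 alternatives and 1, IAA9, without an intensity trend; leaving out 1 library gave 0 to 1 called lower. No alternative called a member higher. Of the other auxin genes, leaving out 1 library called 0 to 2 lower and 0 to 1 higher. The count over all loci was 614, and it was 389 with a minimum mean of 5 FPKM, where IAA2 could not be tested, and 6 to 2041 with 1 library left out (compound raceme 2 left out gave 6, compound raceme 3 gave 7, monomaker 2 gave 8, monomaker 3 gave 15 and monomaker 1 gave 2041). With the replicate number as a block it was 0, with 4676 loci and 6 members at an unadjusted limma p below 0.05. Nothing in the labels pairs equal numbers; their deviations correlated at 0.028, 0.058 and 0.103 over loci, and compound raceme 1 correlated best with monomaker 3. The fold change of IAA4 was 0.02 with quantile normalization, 0.07 with libraries rescaled to the same sum, which moved the median of all loci to 0.13, and -0.24 to 0.24 with 1 library left out. That of IAA8 was -0.31 to 0.09, and the difference in the pool share of IAA3 -0.161 to 0.390 percentage points, with 1 library left out. The causes were not tested. The median of the 10 genes stayed between -0.62 and -0.35. Without counts, no detection limit can be given for low genes such as IAA2.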
